A study of Mus musculus with 30 samples.

Results

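Microglia that lack Lrrk2 were compared with wild-type (WT) microglia in the untreated cultures of a bulk RNA sequencing study, by taking every library whose labels gave the control treatment. These were 6 libraries of Lrrk2 knockout (KO, genotype Lrrk2-/-) and 5 of WT cells, 11 of the 30 libraries of the study. The remaining 19 libraries, from KO and WT cultures given lipopolysaccharide (LPS) or α-synuclein fibrils, also entered the model that estimated the spread of each gene, and are otherwise used only to look up the same genes. All groups were primary microglia from postnatal brains of C57BL/6 mice at day 21, and KO and WT cultures differed by genotype alone in the labels. The substrain, the sex, the exons removed from Lrrk2 and the breeding of the WT controls are not stated in these sources. Nor do the labels say whether replicates came from separate animals or cultures, so the p-values measure the spread between these libraries, which may be technical. Gene totals lay between 8936310 and 25792873 counts in KO libraries and between 15499743 and 33700695 in WT libraries.

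Lrrk2 encodes a large protein with both a kinase and a GTPase domain, and mutations that raise its kinase activity cause inherited Parkinson's disease. Its kinase phosphorylates Rab GTPases, the switches of vesicle traffic, and the protein gathers at stressed lysosomes and endosomes. Microglia are the resident macrophages of the brain, in which Lrrk2 has been linked to inflammatory signalling, phagocytosis and lysosome function.

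Lrrk2 transcripts were strongly lower but not absent in the KO libraries. The gene (ENSMUSG00000036273, chromosome 15, 91673175 to 91816120, GRCm38, plus strand) had 3.10, 4.35, 2.39, 2.09, 1.96 and 2.79 CPM (counts scaled to a common library size) in the KO libraries, against 14.9, 11.8, 16.7, 12.3 and 10.3 CPM in the WT libraries. Every KO library lay below every WT library, so the labels and the targeted gene went together. The mean was 2.78 ± 0.879 CPM in KO and 13.2 ± 2.56 CPM in WT (SD, n = 6 and 5), a difference of -10.42 CPM (two-sided exact permutation test over 462 splits, p = 0.00216, the smallest that the design allows). On the log2 scale this was -2.23 ± 0.21 (SE; edgeR quasi-likelihood test, adjusted p = 2.08e-07). Most of it came from the full-length protein-coding transcript, at 2.24 ± 0.683 CPM in KO and 12.5 ± 2.05 CPM in WT. A transcript with a retained intron stood at 0.482 ± 0.11 CPM in KO and 0.469 ± 0.412 CPM in WT. The deposited counts do not show which exons the remaining KO reads cover.

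Besides Lrrk2, few genes differed between the genotypes. Of 14346 genes tested, 46 (0.321%) had an adjusted p under 0.05 and are referred to as called: 22 (0.153%) were higher in KO and 24 (0.167%), Lrrk2 among them, were lower. At an unadjusted p under 0.05 there were 1043 genes, and the median log2 fold change of all genes tested was 0.01. The CPM ranges of KO and WT did not overlap for 41 of the called genes, against 104 (0.725%) of all genes tested, a measure that comes from the same libraries as the calls. In bulk RNA, fewer cells of a type and less RNA per cell cannot be told apart for any of these genes. Models fitted to the 11 untreated libraries alone called 17 genes, 7 higher and 10 lower, and 14 of the 46 genes kept their call under each of the 22 alternatives run. Without WT control replicate 5 the count was 26.

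**Figure D1:**
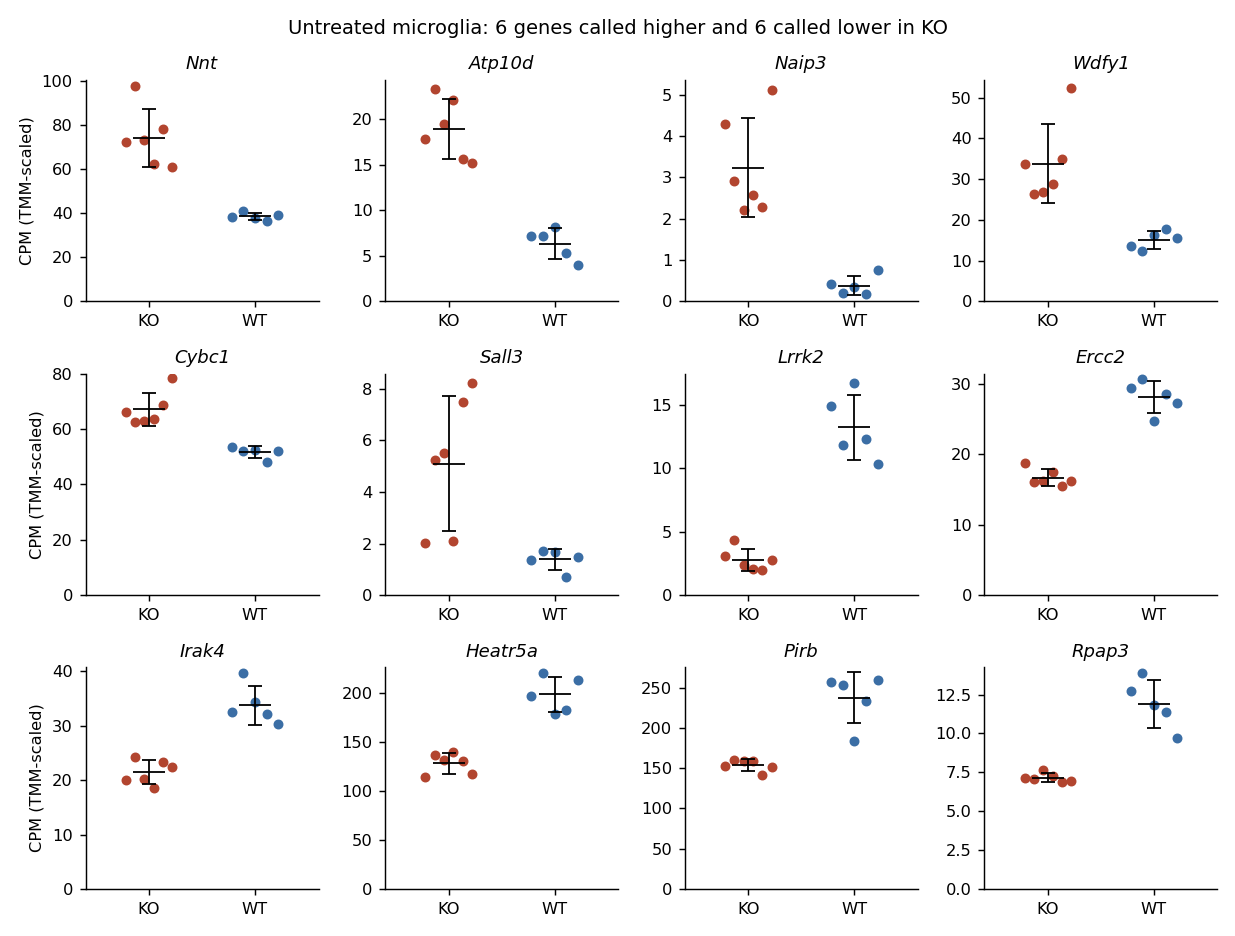
CPM of 12 genes in each untreated library (points), with KO left of WT and the mean and SD in black. Nnt, Atp10d, Naip3, Wdfy1, Cybc1 and Sall3 were called higher in KO and Lrrk2, Ercc2, Irak4, Heatr5a, Pirb and Rpap3 lower, and in each panel the KO points lie wholly on one side of the WT points.

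Nnt and Atp10d had the smallest p-values among the higher genes with a full name. Nnt (ENSMUSG00000025453, chromosome 13, 119335448 to 119408997) encodes the mitochondrial transhydrogenase, which uses the proton gradient to make NADPH. It had 72.4, 97.5, 73.3, 62.2, 78.0 and 61.0 CPM in KO libraries, against 38.3, 40.9, 37.6, 36.5 and 39.2 CPM in WT libraries. The lowest KO library was thus well above the highest WT library, and the log2 fold change was 0.95 ± 0.09 (adjusted p = 5.96e-07). Both main protein-coding transcripts showed the shift: ENSMUST00000099149 averaged 54.7 ± 9.31 CPM in KO and 27.8 ± 1.88 CPM in WT, and ENSMUST00000069902 averaged 14.8 ± 6.3 CPM in KO and 6.78 ± 1.47 CPM in WT. Another one, ENSMUST00000109204, was at 2.59 ± 1.6 CPM in KO and 2.62 ± 0.94 CPM in WT. Of the 18 enzymes that supply NADPH, Nnt was the one called, and the list's median was -0.08.

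**Figure D2:**
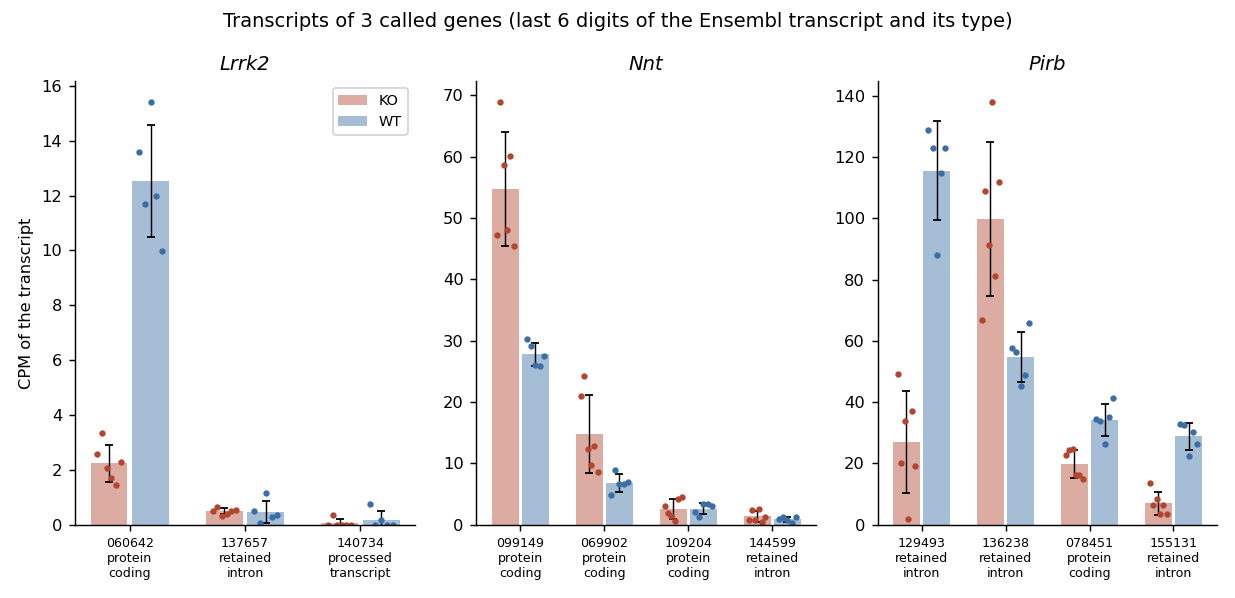
CPM of the most abundant transcripts of Lrrk2, Nnt and Pirb, with KO left of WT in each pair (bars, mean; error bars, SD; points, libraries). The protein-coding Lrrk2 transcript is low in KO, both main Nnt transcripts are high in KO, and Pirb shows some transcripts lower in KO and another higher.

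Atp10d encodes a P4-ATPase, an enzyme that moves phospholipids between membrane leaflets, and the reference annotation lists it as a polymorphic pseudogene (chromosome 5, 72203329 to 72298775). Its CPM was 17.8, 23.4, 19.5, 22.1, 15.7 and 15.2 in KO libraries, against 7.16, 7.15, 8.18, 5.28 and 3.97 in WT libraries. No KO library reached down to the WT range, and the log2 fold change was 1.58 ± 0.17 (adjusted p = 2.21e-06). Among 11 tested flippases and their chaperones it was the only one called. Atp8b4 (-0.74 ± 0.20, adjusted p = 0.159) and Atp9a (1.49 ± 0.45, adjusted p = 0.262) had the next smallest p-values.

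Wdfy1 encodes a protein of early endosomes that has been tied to Toll-like receptor signalling. Its CPM was 33.6, 26.3, 26.8, 28.9, 34.9 and 52.4 in KO libraries, against 13.5, 12.3, 16.3, 17.8 and 15.6 in WT libraries. KO replicate 6 was the highest, yet all KO libraries exceeded all WT libraries (log2 fold change 1.16 ± 0.20, adjusted p = 0.00185). Nnt and Wdfy1 are among the genes known to differ between substrains of C57BL/6, since C57BL/6J lacks exons of Nnt. Of 9 tested genes on a list of such loci these 2 were called, both higher in KO, with a list median of -0.10. Ide, the insulin-degrading enzyme, came next at -0.39 ± 0.10 (adjusted p = 0.115). DESeq2 called 3 genes of the list, 2 higher and 1 lower. So did edgeR with replicate number as a block and edgeR with 1 surrogate variable.

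The other named genes that were higher in KO covered several functions. Cybc1, a chaperone needed for the membrane core of the phagocyte NADPH oxidase, was at 66.2, 62.6, 62.8, 63.7, 68.5 and 78.5 CPM in KO libraries, against 53.4, 52.1, 52.5, 47.9 and 52.1 CPM in WT libraries. This was a small shift without overlap (0.38 ± 0.07, adjusted p = 0.0035), while the oxidase gene Cybb itself stood at 0.02 ± 0.18 and was not called (adjusted p = 0.994). Sall3, a zinc finger transcription factor, had 2.02, 5.23, 5.50, 2.09, 7.49 and 8.22 CPM in KO libraries, against 1.37, 1.72, 1.66, 0.704 and 1.46 CPM in WT libraries (1.90 ± 0.35, adjusted p = 0.00574). KO replicates 1 and 4 lay just above the WT range. The kinase gene Sbk2 was near the detection limit, between 0.510 and 2.39 CPM in KO and between 0.119 and 0.352 CPM in WT libraries (2.30 ± 0.44).

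Cybc1, Sall3 and Sbk2 kept their calls when single libraries were left out, but lost them under 1, 1 and 2 of the other alternatives. A further group of higher genes was called less firmly, because leaving out single libraries ended the call. Gtf2h2, a subunit of the transcription and repair factor TFIIH, differed by 0.55 ± 0.11 (adjusted p = 0.0183), but its adjusted p was 0.0524, 0.058 and 0.0681 without KO replicate 4, WT replicate 5 and WT replicate 6. Ctse encodes the aspartic protease cathepsin E and had 0.19, 0.612, 1.63, 1.29, 2.65 and 3.88 CPM in KO libraries, against 0.298, 0.203, 0.172, 0.205 and 0.175 CPM in WT libraries. KO replicate 1 fell within the WT range, and the call (2.96 ± 0.62, adjusted p = 0.0225) ended without any one of 6 libraries, KO replicates 5 and 6 and WT replicates 2, 3, 5 and 6, with adjusted p up to 0.0849. Ctla2a, an inhibitor of cysteine proteases of the cathepsin L kind, rested partly on KO replicate 5, with 17.1 CPM beside 5.74 to 7.97 CPM in the other KO libraries and 2.28 to 4.87 CPM in WT libraries (1.23 ± 0.26). Its call ended without KO replicate 5 or WT replicates 1, 2 or 3, with adjusted p up to 0.134. For Ubxn2a, an adaptor of the p97 ATPase, the difference was 0.45 ± 0.09, and adjusted p rose to at most 0.105 without KO replicates 2 or 6 or WT replicates 2 or 5.

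Smo, the signal transducer of the Hedgehog pathway, was called higher at 0.69 ± 0.15 (adjusted p = 0.0292). It had 14.1, 24.4, 22.4, 15.8, 29.1 and 20.7 CPM in KO libraries, against 14.2, 12.7, 13.7, 12.9 and 11.8 CPM in WT libraries. KO replicate 1 overlapped the WT range, and the call ended without any one of KO replicates 2, 3, 5 and 6 and WT replicates 2, 3, 5 and 6 (adjusted p up to 0.0995). The 12 tested Hedgehog genes had a median of 0.44 and 9 were positive, but no other member was called, Kif7 coming closest at 0.80 ± 0.31 (adjusted p = 0.514). The positive median did not hold in every model: it was -0.12 with 8 negative when the other-cell marker score, added after seeing the data, was a covariate, and -0.04 with 6 negative when 1 surrogate variable was. Leaving out single libraries gave 0.11 (KO replicate 3), 0.24 (WT replicate 2), 0.27 (WT replicate 6), 0.29 (KO replicate 1) and 0.69 (WT replicate 3).

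Genes lower in KO included a Toll-like receptor kinase, a complement receptor and parts of the RNA and DNA maintenance machinery. Irak4, the kinase that begins signalling below the adaptor MyD88, had 20.1, 24.3, 20.3, 18.6, 23.4 and 22.4 CPM in KO libraries, against 32.5, 39.7, 34.3, 32.1 and 30.4 CPM in WT libraries. The ranges were clearly apart (-0.65 ± 0.08, adjusted p = 8.08e-06). The other receptors, adaptors and kinases of the pathway did not share this: of 28 tested, Irak4 was called and the median was 0.01. Tlr4, the LPS receptor, was at -0.01 ± 0.10, Myd88 at -0.29 ± 0.20 and Irak1 at 0.05 ± 0.09.

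C5ar2, an alternative receptor for the complement fragment C5a, had 5.56, 3.60, 2.5, 1.39, 5.75 and 2.48 CPM in KO libraries, against 14.2, 15.8, 9.56, 11.6 and 15.9 CPM in WT libraries. KO libraries were thus all below WT libraries (-1.91 ± 0.35, adjusted p = 0.00574). C5ar1, the classical C5a receptor, gave -0.73 ± 0.22 and was not called (adjusted p = 0.262). Across 20 complement genes C5ar2 was the one called.

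Ercc2 and Gtf2h2 both encode subunits of TFIIH and were called in opposite directions. Ercc2, its DNA helicase, had 18.7, 16.0, 16.2, 17.5, 15.5 and 16.2 CPM in KO libraries, against 29.4, 30.7, 24.7, 28.6 and 27.3 CPM in WT libraries (-0.75 ± 0.09, adjusted p = 8.08e-06). A pair of genes of nonsense-mediated mRNA decay, the pathway that removes transcripts with early stop codons, was lower. Dhx34, an RNA helicase, was between 11.1 and 17.2 CPM in KO and between 19.6 and 27.1 CPM in WT libraries (-0.64 ± 0.10, adjusted p = 0.00119). Smg9, a regulator of the kinase SMG1, was between 21.6 and 28.9 CPM in KO and between 32.5 and 40.1 CPM in WT libraries (-0.54 ± 0.09, adjusted p = 0.00153). No list of decay factors was tested, so Dhx34 and Smg9 stand as single genes.

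A further 4 genes were lower in KO without overlap of the ranges. Rpap3, a co-chaperone in the assembly of RNA polymerases, was nearly constant in KO at 7.15, 7.07, 7.63, 7.26, 6.85 and 6.93 CPM, against 12.7, 13.9, 11.8, 11.4 and 9.69 CPM in WT libraries (-0.74 ± 0.10, adjusted p = 0.000141). Heatr5a, a large HEAT-repeat protein, was between 114 and 140 CPM in KO and between 179 and 221 CPM in WT libraries (-0.63 ± 0.08, adjusted p = 7.32e-05). Prkcd, encoding protein kinase C delta, was between 188 and 205 CPM in KO and between 210 and 277 CPM in WT libraries, the 210 CPM coming from WT replicate 3 (-0.40 ± 0.07). Its call ended without WT replicate 5 (adjusted p = 0.066). Slc1a5, a transporter of glutamine and other neutral amino acids, was between 3.98 and 9.55 CPM in KO and between 10.7 and 17.3 CPM in WT libraries (-1.08 ± 0.21, adjusted p = 0.00917), the one call among 23 amino acid transporters.

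The called gene with the smallest p-value of all belongs to the paired immunoglobulin-like receptors, surface proteins of myeloid cells that exist as activating (Pira, Lilra) and inhibitory (Pirb) forms and bind MHC class I. Gm14548, an activating member on chromosome 7, had 24.7, 29.1, 26.4, 42.6, 24.8 and 26.7 CPM in KO libraries, against 3.49, 4.82, 2.06, 2.88 and 1.40 CPM in WT libraries. The gap between the ranges was wide (3.29 ± 0.29, adjusted p = 1.76e-07). Lilra6 was also higher, at 12.3, 8.70, 12.2, 11.7, 10.8 and 19.6 CPM in KO libraries, against 7.40, 3.09, 2.92, 4.23 and 2.86 CPM in WT libraries. Its call (1.6 ± 0.34, adjusted p = 0.0261) ended without KO replicate 6 or WT replicates 2, 3, 5 or 6, with adjusted p up to 0.113. Pira2, another activating member, went the other way, with 12.6, 11.2, 11.9, 15.6, 10.4 and 8.94 CPM in KO libraries, against 38.8, 40.8, 16.5, 34.6 and 27.3 CPM in WT libraries (-1.43 ± 0.24, adjusted p = 0.00153). The inhibitory receptor gene Pirb was lower too, at 153, 160, 159, 159, 141 and 151 CPM in KO libraries, against 257, 253, 184, 234 and 259 CPM in WT libraries (-0.62 ± 0.08, adjusted p = 7.68e-05).

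These receptor genes share stretches of sequence to different degrees, so the split of reads between them is uncertain. The directions of single members are uncertain too, most of all for Pira2 and Gm14548. Of all stretches of 100 bases, the read length, in Gm14548 transcripts, 51.9% also occurred in another gene, and 41.4% occurred in Pira2. For Pira2 the share with another gene was 84.1%, for Pirb 20.7% and for Lilra6 13%. One such stretch, from coding base 1551, is letter for letter the same in Gm14548, Pira2, Lilra6 and Pirb (GENCODE M21 transcripts, GRCm38). It was picked for having the fewest mismatches, and is shown because no read from it could be assigned to one copy.
Gm14548, Pira2, Lilra6 and Pirb: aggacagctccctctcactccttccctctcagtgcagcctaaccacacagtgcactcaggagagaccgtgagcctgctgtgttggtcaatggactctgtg
Elsewhere the copies can be told apart, as in the stretch from coding base 431. It was picked for having the most mismatches among stretches at the same coding position with at most 15 in any copy. Capitals mark the letters that differ from Gm14548, 13 in Pira2, 15 in Lilra6 and 8 in Pirb.
Gm14548: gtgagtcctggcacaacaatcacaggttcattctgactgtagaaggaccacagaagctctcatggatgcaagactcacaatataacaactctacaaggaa
Pira2: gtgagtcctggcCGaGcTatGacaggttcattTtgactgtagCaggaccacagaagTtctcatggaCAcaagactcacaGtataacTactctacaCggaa
Lilra6: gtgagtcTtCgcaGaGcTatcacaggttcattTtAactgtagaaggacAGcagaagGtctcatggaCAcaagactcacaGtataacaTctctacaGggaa
Pirb: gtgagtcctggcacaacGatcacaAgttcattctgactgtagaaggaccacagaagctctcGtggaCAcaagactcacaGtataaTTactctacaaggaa

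The transcripts of Pirb did not move as one. Its protein-coding transcript ENSMUST00000078451 averaged 19.9 ± 4.49 CPM in KO and 34.3 ± 5.24 CPM in WT. The retained-intron transcript ENSMUST00000129493 was far lower in KO, at 26.9 ± 16.6 CPM, against 116 ± 16.1 CPM in WT. By contrast ENSMUST00000136238, another retained-intron form, was at 99.8 ± 25.2 CPM in KO and 54.8 ± 8.07 CPM in WT, with 67.0 CPM the lowest KO value and 66.0 CPM the highest WT value. Transcripts were not tested one by one, and reads common to them were divided by a counting step that the sources used here do not describe.

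Shared sequence was not limited to these receptors. At least 10% of the 100-base stretches were shared with another gene in 12 of the 46 called genes (26.1%), 9 higher and 3 lower, against 1521 of 14338 tested genes with a value (10.6%). Under that limit there were 34 called genes, 13 higher and 21 lower. Among those over it were the pseudogenes Naip3 (21.5%), Gm14150 (51.0%) and Gm17383 (57.7%). Naip3, a pseudogene copy of the Naip receptors for bacterial flagellin and secretion proteins, had 4.30, 2.92, 2.21, 2.58, 2.28 and 5.12 CPM in KO libraries, against 0.418, 0.203, 0.343, 0.176 and 0.759 CPM in WT libraries (3.10 ± 0.48, adjusted p = 0.000679). Naip2, the receptor for secretion system rods, was lower in the same libraries, between 71.1 and 96.2 CPM in KO and between 102 and 122 CPM in WT (-0.45 ± 0.09, adjusted p = 0.0162). That call ended without KO replicate 3 (adjusted p = 0.0513) or WT replicate 5 (adjusted p = 0.147).

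Called genes lay close together on a few chromosomes. When called genes less than 5 Mb apart were joined, a rule chosen after seeing the positions, 5 spans held 3 or more called genes each. They contained 24 of the 46 called genes, 6 higher and 18 lower, among 150 tested genes (16.0%), whereas 22 of 14196 genes outside them were called (0.155%). Because the spans were drawn around called genes, these shares describe the clustering and are no test of it. The first span, on chromosome 7 (3711409 to 4964406), held Pirb, Gm15925, Pira2, Gm14548, Lilra6, Eps8l1 and Sbk2, 7 of 33 tested genes. Eps8l1, related to regulators of actin, was between 0 and 0.796 CPM in KO and between 2.88 and 4.66 CPM in WT libraries (-3.54 ± 0.77, adjusted p = 0.0292). Its call ended without KO replicates 1, 2, 4 or 6 or WT replicates 1, 2 or 5 (adjusted p up to 0.0832).

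The second span began at Lrrk2 itself and ran over 6.3 Mb of chromosome 15 (91673175 to 97970275). It held Lrrk2, Irak4, the antisense transcript A130051J06Rik, Rpap3 and Tmem106c, all 5 lower, among 27 tested genes. The 22 genes of this span that were not called split evenly, 11 negative and 11 positive, with a median of 0.02. In a window of 5 Mb on either side of Lrrk2, 54 other genes were tested and 2 (3.7%) were called, both lower, with a median of -0.05. Kif21a, a kinesin motor gene 0.74 Mb before Lrrk2, was at 2.23 ± 0.55 and missed the threshold (adjusted p = 0.102). In the treated cultures edgeR called Kif21a higher in KO, at 2.83 with LPS (adjusted p = 0.0092) and 4.01 with fibrils (adjusted p = 0.0020). The calls of A130051J06Rik and Tmem106c ended without most single libraries (9 and 7 of 11), with adjusted p up to 0.168 and 0.127.

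The next span, again on chromosome 7 (16197147 to 19395694), held Dhx34, C5ar2, Slc1a5, Ccdc61 and Ercc2, all 5 lower, among 48 tested genes. Ccdc61, a protein of centrioles, was between 2.19 and 4.55 CPM in KO and between 5.60 and 7.30 CPM in WT libraries (-1.04 ± 0.17, adjusted p = 0.00148). The 43 genes not called had a median of 0.01, 21 of them negative. On chromosome 13 (95627177 to 100492579) lay the lower genes Iqgap2 and Naip2 and the higher genes Naip3 and Gtf2h2, among 37 tested. Iqgap2, a scaffold for actin regulators, had 17.5, 27.7, 13.3, 13.4, 22 and 57.2 CPM in KO libraries, against 110, 111, 95.2, 119 and 109 CPM in WT libraries. No KO library came near the WT range, although KO replicate 6 stood above the rest (-2.11 ± 0.43, adjusted p = 0.0183). The adjusted p was 0.0627, 0.0542, 0.0543 and 0.0635 without KO replicates 3, 4 and 5 and WT replicate 5. The fifth span covered 0.32 Mb of chromosome 12 (51691033 to 52006501), with Ap4s1, Heatr5a and Dtd2 lower among 5 tested genes. Ap4s1 encodes a subunit of the adaptor complex that sorts cargo from the Golgi, and Dtd2 an enzyme that proofreads charged tRNAs. The Ap4s1 call (-0.63 ± 0.13, adjusted p = 0.0165) ended without WT replicates 3 or 5 (adjusted p up to 0.0575). That of Dtd2 (-0.54 ± 0.12, adjusted p = 0.0272) ended without KO replicates 1, 4 or 6 or WT replicates 1, 2, 3 or 5 (adjusted p up to 0.0925).

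**Figure D3:**
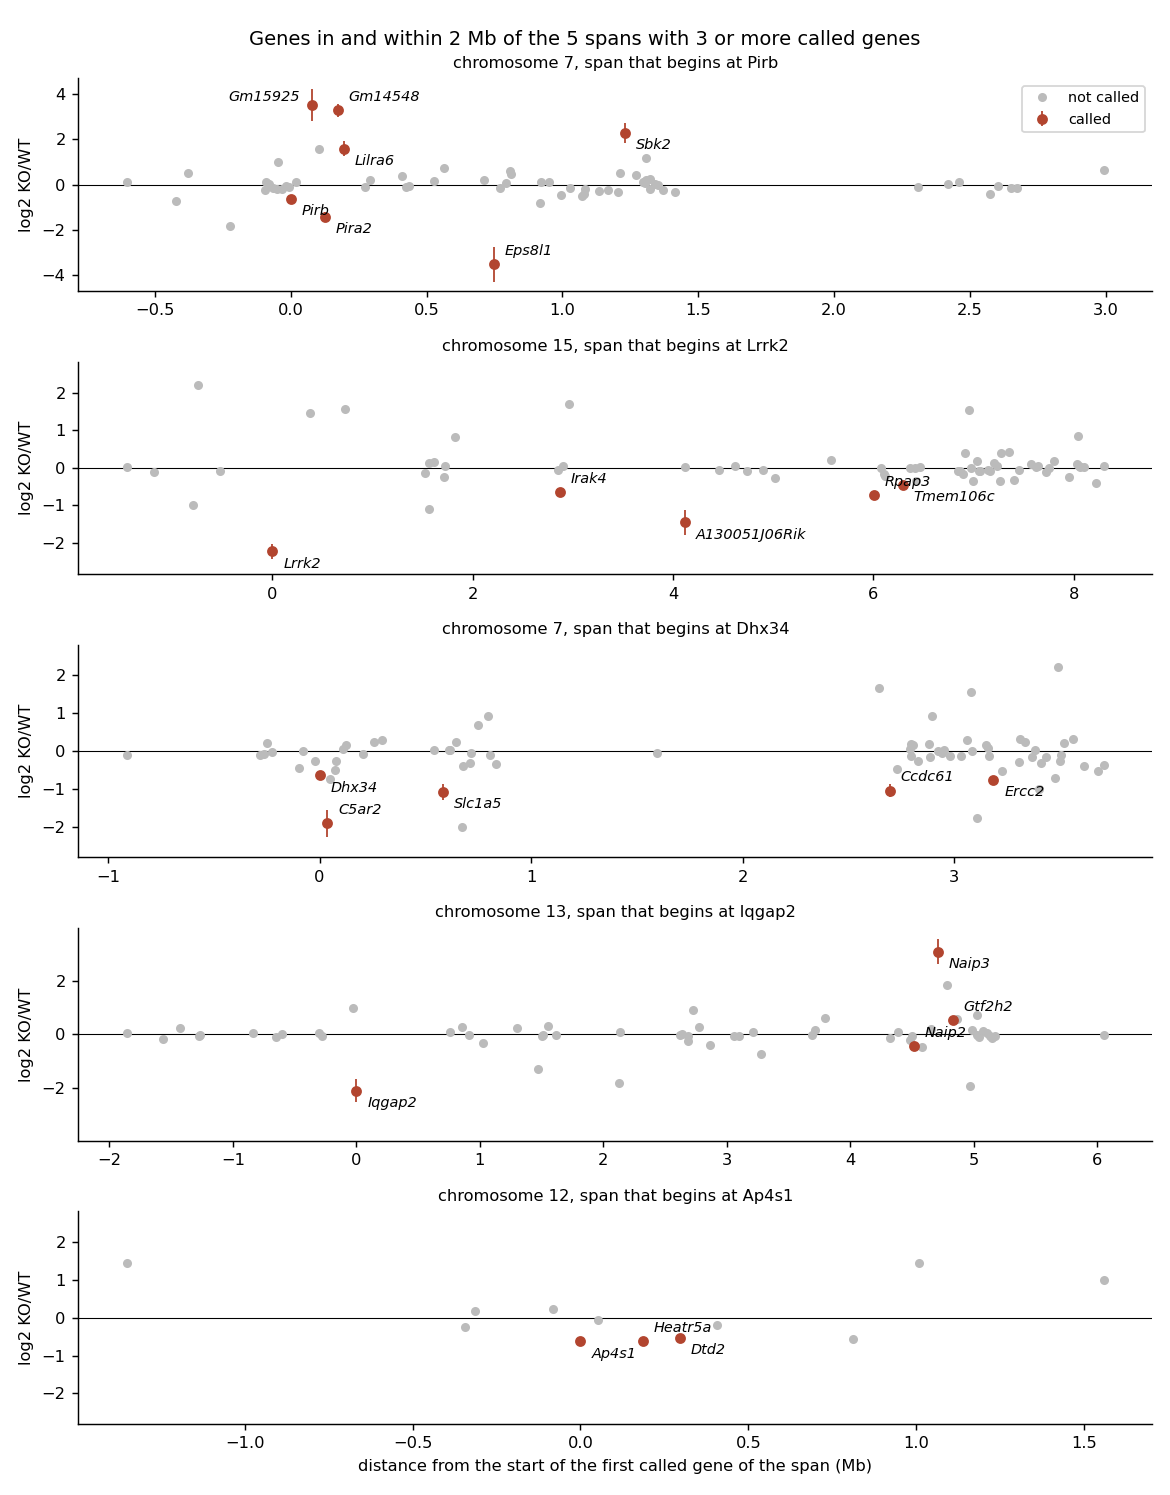
Log2 fold change (KO over WT) of genes in and within 2 Mb of the 5 spans, against distance in Mb from the start of the first called gene of each span. Called genes are red with their SE and grey points are genes not called. In each panel grey points lie on both sides of 0.

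KO and WT libraries of the treated cultures gave the same sign for nearly all of the 46 genes. Their values are in none of the untreated group means, but they share the model, its filter and its estimate of spread with the untreated comparison. With LPS 248 genes (1.73%) were called between KO and WT, and with fibrils 1282 (8.94%). In the fibril libraries the mean log2 CPM of oligodendrocyte, astrocyte and fibroblast markers did not overlap between genotypes. It lay between 1.02 and 2.68 in KO and between -0.946 and -0.549 in WT. Whether this contributed to the fibril calls was not tested. Of the 46, 43 had the same sign with LPS and 31 were also called there, 15 higher and 16 lower. Over all genes tested, 0.474% were called higher and 1.25% lower with LPS. With fibrils 45 of the 46 had the same sign and 37 were also called, 16 higher and 21 lower. Over all genes tested, 5.27% were called higher and 3.67% lower with fibrils. None of the 46 was called in the opposite direction, 29 were called the same way in both (14 higher, 15 lower) and 7 in neither. Gm14548, for example, was at 3.14 ± 0.29 with LPS and 4.71 ± 0.36 with fibrils, and Iqgap2 was at -2.10 with LPS and -2.77 with fibrils.

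Of the 46 genes called in untreated cultures, 15 were not called with LPS and 9 were not called with fibrils, while 29 were called in both treated sets. Cybc1 was at 0.00 with LPS (adjusted p = 0.99) and 0.02 with fibrils (adjusted p = 0.88). Lpcat3 stood at 0.03 with LPS (adjusted p = 0.88) but at -0.39 with fibrils (adjusted p = 0.0044), and Wdfy1 at 0.23 with LPS (adjusted p = 0.59) but at 0.79 with fibrils (adjusted p = 0.024). Ctse gave -0.04 with LPS and 2.83 with fibrils. A test of the difference itself, the interaction of genotype and treatment in edgeR, called 0 genes for LPS (600 at an unadjusted p under 0.05) and 0 for fibrils (1667 at an unadjusted p under 0.05). No difference between untreated and treated cultures is therefore shown for any of these genes.

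**Figure D4:**
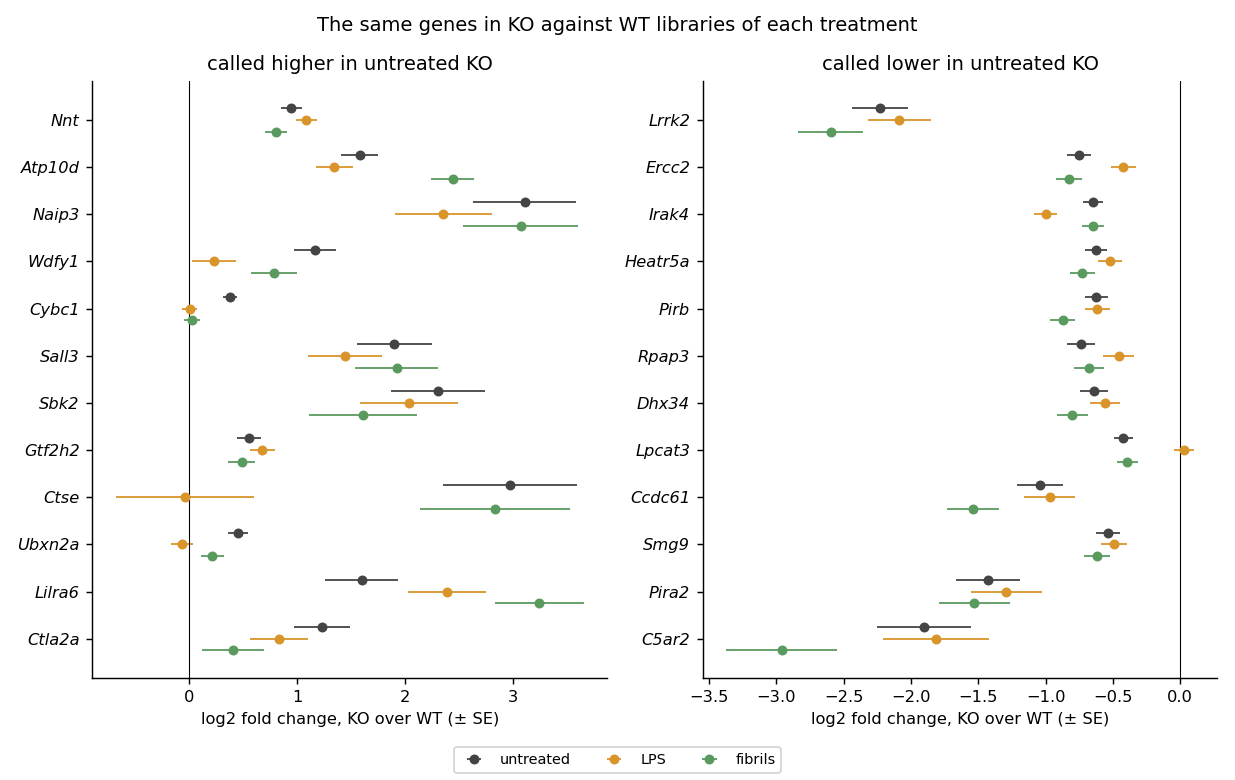
Log2 fold change of KO over WT (points, ± SE) for 12 genes called higher and 12 called lower in untreated KO, in untreated, LPS and fibril cultures. Most genes lie on the same side of 0 in all 3 treatments, and Cybc1, Ctse and Lpcat3 lie near 0 with LPS.

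Genes of lipid handling had mostly negative fold changes, with 1 call. Liver X receptors (LXR) are sterol sensors that turn on cholesterol efflux, and Lpcat3, one of their targets, puts polyunsaturated chains into membrane phospholipids. Lpcat3 had 36.1, 39.7, 37.4, 37.3, 36.2 and 37.2 CPM in KO libraries, against 49.9, 53.3, 51.4, 47.5 and 48.0 CPM in WT libraries. The values were tight within each genotype and did not overlap (-0.42 ± 0.07, adjusted p = 0.00146), but the call ended with scaling by library size alone and with KO replicates 3, 4 and 6 left out together, an alternative added after seeing the data. Of 20 LXR and efflux genes 19 had a negative sign and the median was -0.27, against 0.01 over all genes. With scaling by library size alone 15 were negative and the median was -0.19. It was -0.05, with 12 negative, 1 called higher and 4 called lower, with the other-cell marker score as a covariate, and -0.07, with 15 negative, 1 called higher and 3 called lower, with 1 surrogate variable. Without KO replicate 1, WT replicate 5 and WT replicate 6 in turn it was -0.18, -0.18 and -0.14. Srebf1, the transcription factor of fatty acid synthesis, was at -0.48 ± 0.16 (adjusted p = 0.374), the efflux pump Abcg1 at -0.67 ± 0.30 (adjusted p = 0.654) and the receptor gene Nr1h3 at -0.50 ± 0.18 (adjusted p = 0.441). The exception was the apolipoprotein gene Apoc1, with 8.03, 9.58, 14.1, 13, 47.7 and 28.9 CPM in KO libraries, against 3.01, 2.33, 2.46, 5.84 and 8 CPM in WT libraries. Its lowest KO value was just above its highest WT value, and it narrowly missed the threshold (2.23 ± 0.52, adjusted p = 0.0568), while DESeq2 called 1 gene of the list higher. So did edgeR with RLE or library size scaling, a filter of 1 CPM in 5 untreated libraries, or replicate number as a block. Leaving out KO replicate 1 or 2 also gave 1 higher call.

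Of the 23 cholesterol synthesis genes 20 were negative, with a median of -0.32, and edgeR called 0, with 2 at an unadjusted p under 0.05 and 0 called by limma-voom or DESeq2. Dhcr7, the last enzyme of the pathway, was at -0.64 ± 0.25 (adjusted p = 0.512) and Pmvk, the phosphomevalonate kinase, at -0.47 ± 0.21 (adjusted p = 0.642). The mean log2 CPM of the list lay between 3.74 and 5.07 in KO libraries and between 4.40 and 5.59 in WT libraries, with KO replicates 5 and 6 lowest and WT replicate 3 highest. Without WT replicate 3 the median was -0.13 with 16 negative, without KO replicate 5 it was -0.20 and without KO replicate 6 it was -0.18. With 1 surrogate variable in the model 11 of the 23 were called lower, and with the other-cell marker score as a covariate, added after seeing the data, 4 were.

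Interferon-stimulated genes varied widely between libraries and were not called. Type I interferon acts through a complex of transcription factors that binds an element in the promoters of its targets. Of 42 such genes edgeR called 0, with 2 at an unadjusted p under 0.05 (Irf1 and Irf9) and 0 called by limma-voom or DESeq2, against 0.321% called over all genes. The signs were negative for 36, and the median was -0.32. In limma-voom the median was -0.94 with 41 negative, and with replicate number as a block it was -0.78 with 40 negative. With 1 surrogate variable it was -0.20 with 34 negative. The spread of these genes was wider among KO than among WT libraries: the mean log2 CPM of the list lay between 3.33 and 7.22 in KO libraries and between 5.40 and 6.60 in WT libraries. KO replicate 6 had the highest value of all 11 libraries for 32 of the 42 genes, and KO replicate 4, which had the fewest counts, had the lowest for 29. Without KO replicate 6 the median was -1.21, with 40 negative and 0 called, and without WT replicate 5 it was -0.08. Without one of KO replicates 1 to 4 it lay between -0.21 and -0.09.

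The letters of the binding element were common in the promoters of this list. The core searched was GAAA, any 2 bases, GAAA, on both strands, in the window from 250 bases before to 50 bases after the gene start (RefSeq, GRCm38.p6). It was found in 18 of the 34 interferon genes with a promoter in the table (52.9%), against 3.99% of all 27025 genes with a promoter. Among genes called lower 1 of 22 held it, and among genes called higher 0 of 8. The LXR repeat, AGGTCA, any 4 bases, AGGTCA, was found in this window of 0 of 13 LXR-list genes and of 4 of the 27025 genes. Segments upstream of 4 of the genes with the widest spread are shown to let the element be seen beside the values, with capitals marking the core; where it lies on the other strand it reads TTTC, 2 bases, TTTC.
Isg15 (chr4:156200860-156200911, minus strand, core 78 bases before the start, 3 overlapping matches): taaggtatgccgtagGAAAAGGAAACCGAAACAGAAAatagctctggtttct
Ifit1 (chr19:34640770-34640809, plus strand, core 104 bases before the start): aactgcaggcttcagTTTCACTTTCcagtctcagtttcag
Ifit3 (chr19:34583358-34583397, plus strand, core 156 bases before the start): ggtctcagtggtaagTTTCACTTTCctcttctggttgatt
Rsad2 (chr12:26456548-26456587, minus strand, core 120 bases before the start): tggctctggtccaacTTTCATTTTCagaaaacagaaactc

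All 4 genes showed the same pattern. Isg15, a ubiquitin-like modifier, had 15.2, 2.89, 8.94, 2.19, 19.3 and 135 CPM in KO libraries, against 30.8, 29.2, 25.2, 49.9 and 16.6 CPM in WT libraries (0.01 ± 0.77). Ifit1, which binds foreign RNA, had 48.0, 10.7, 43.8, 8.45, 91.6 and 286 CPM in KO libraries, against 127, 90.0, 77.4, 155 and 57.6 CPM in WT libraries (-0.32 ± 0.67). Rsad2, the antiviral enzyme viperin, had 53.6, 23.5, 64.5, 9.15, 138 and 818 CPM in KO libraries, against 198, 142, 145, 389 and 115 CPM in WT libraries (-0.10 ± 0.85). In each case KO replicate 6 lay above every WT library and KO replicates 1 to 4 lay below every WT library, so the WT values fell between those of the KO cultures. Ifit3, a partner of Ifit1, lay between 14.5 and 688 CPM in KO libraries and between 128 and 411 CPM in WT libraries.

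**Figure D5:**
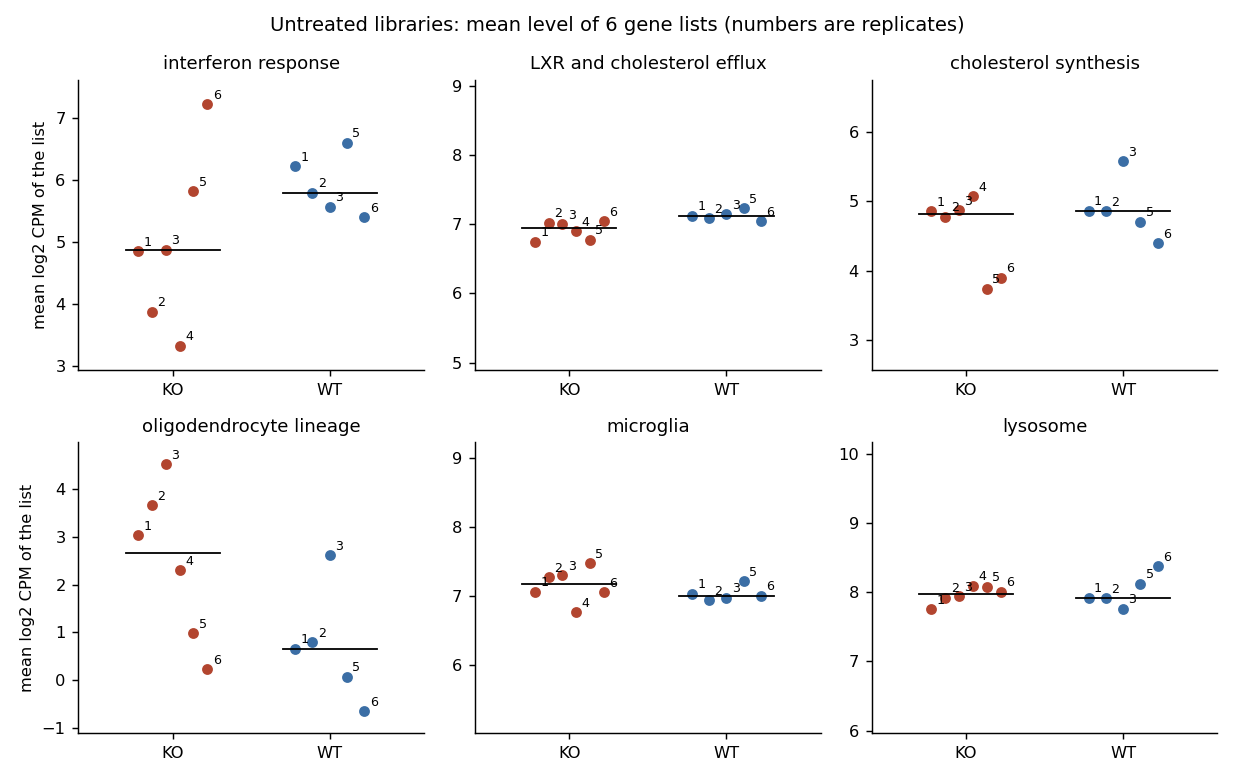
Mean log2 CPM of 6 gene lists in each untreated library, with KO left of WT (points, libraries with their replicate number; black line, median). The interferon list spreads from 3.33 to 7.22 among KO libraries, oligodendrocyte markers are highest in KO replicates 1 to 3, and microglia and lysosome lists differ little between libraries.

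The direct partners of LRRK2 and the compartments it acts on showed no calls. Of 38 substrates, partners and upstream regulators, edgeR called 0 (3 at an unadjusted p under 0.05, 0 by limma-voom or DESeq2), with a median of -0.04. Rab8a, a substrate, was at -0.17 ± 0.07 (adjusted p = 0.63), the substrate Rab10 at -0.06 ± 0.07, Rab12 at 0.16 ± 0.07 (adjusted p = 0.63), Rab29, which recruits LRRK2 to membranes, at -0.03 ± 0.17, and the retromer subunit Vps35 at 0.06 ± 0.07. For Rab12 the values were 58.2, 56.9, 61.4, 66.8, 66.3 and 59.6 CPM in KO libraries, against 53.7, 50.4, 58.8, 55.4 and 57.8 CPM in WT libraries, an overlap of 2 KO libraries with WT. Bst1, a surface enzyme whose gene lies at another Parkinson's disease locus, was at -0.57 ± 0.25 (adjusted p = 0.626). Among 53 lysosomal genes 0 were called (3 at an unadjusted p under 0.05, median -0.02), and among 48 Rab genes 0 (5 at an unadjusted p under 0.05, median 0.01), in edgeR, limma-voom and DESeq2.

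Inflammatory and activation lists were likewise without calls in edgeR. These were 29 cytokines and chemokines (3 at an unadjusted p under 0.05, median 0.20), 20 NF-kB subunits and feedback genes (3, median -0.11), 20 homeostatic microglia genes (4, median 0.15), 25 disease-associated microglia genes (1, median -0.04) and 29 antioxidant genes (1, median -0.13). Neither limma-voom nor DESeq2 called a member of these 5 lists. Tnf was at 0.20 ± 0.20, Il1b at -0.06 ± 0.51 and Il6 at -0.72 ± 0.77. Among oxidative stress genes, Sod2 was at 0.09 ± 0.13, Hmox1 at -0.16 ± 0.32 and Nqo1 at 0.31 ± 0.31. The microglia genes P2ry12 (0.01 ± 0.33), Tmem119 (0.01 ± 0.31), Trem2 (-0.06 ± 0.23) and Apoe (-0.26 ± 0.19) were not called either, nor was Lrrk1, the paralog of Lrrk2 (-0.14 ± 0.14). For the fractalkine receptor gene Cx3cr1, a microglia marker, KO libraries had 209, 266, 230, 126, 246 and 151 CPM, against 135, 112, 174, 163 and 89.1 CPM in WT libraries. The ranges overlapped, and Cx3cr1 was not called (0.60 ± 0.28, adjusted p = 0.663). The 10 NADPH oxidase genes had 0 calls in edgeR (1 at an unadjusted p under 0.05) and limma-voom, and 1 in DESeq2, Rac1, at -0.17 ± 0.05 in edgeR (adjusted p = 0.262). In the 30 cell cycle genes and the 13 mitochondrially encoded genes 0 were called and 0 had an unadjusted p under 0.05.

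Markers of other brain cells differed between libraries and moved partly with genotype. All 10 microglia markers were tested, and their mean log2 CPM lay between 6.77 and 7.48 in KO libraries and between 6.94 and 7.21 in WT libraries. The 12 tested oligodendrocyte markers were all positive, with a median of 1.81, 7 at an unadjusted p under 0.05 and 0 called. Their summed level lay between 106 and 847 CPM in KO libraries and between 104 and 210 CPM in WT libraries. Mag, an adhesion protein of the myelin sheath, had 14.1, 18, 42, 7.56, 2.60 and 2.79 CPM in KO libraries, against 2.92, 2.79, 8.64, 2.99 and 2.33 CPM in WT libraries (1.90 ± 0.65, adjusted p = 0.378). It was thus high in KO replicates 1 to 4 and WT replicate 3 and low in the rest, with Mog listed at 0 in KO replicate 6 and in WT replicates 1, 5 and 6. The 12 astrocyte markers were also all positive (median 0.62), with summed levels of 48.8 to 283 CPM in KO and 25.8 to 237 CPM in WT libraries. Their median was 0.33 with 3 negative without WT replicate 6, 1.19 without WT replicate 3 and 0.41 without KO replicate 1. That of the oligodendrocyte markers was 1.20 without KO replicate 3. With 1 surrogate variable in the model the astrocyte median was -0.22 with 10 negative, and the oligodendrocyte median was 0.50. The 11 fibroblast markers had a median of 0.74 (0.41 without KO replicate 3, 0.49 without WT replicate 6 and 0.17 with 1 surrogate variable). Of 7 neuron markers 2 were tested, and none of the 9 lymphocyte markers passed the filter.

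The called genes were also fitted with these marker levels in the model. With a marker score as a covariate 92 genes were called, 42 of them among the 46. Without KO replicates 3, 4 and 6, which had the highest oligodendrocyte markers, the fewest counts and the highest interferon genes, 24 were called, 23 of them among the 46. Nnt, Atp10d, Irak4, Ercc2, Rpap3, Heatr5a, Pirb, Pira2, Gm14548, Naip3, Wdfy1, Lrrk2 and the number-named Gm14150 and 1500015A07Rik were the 14 called under every alternative. Dhx34, Smg9 and C5ar2 each lost the call under 1 alternative, and Slc1a5 and Ccdc61 under 2.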

How the data were processed

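RNA from primary microglia was sequenced as stranded, ribosome-depleted libraries of single reads, per the labels' protocols. Per the submitters' processing notes, CASAVA 1.7.1 called bases and STAR 2.4.2a aligned to mm10. The authors deposited whole-number estimated counts (expected counts) for Ensembl transcripts, not normalized. The counting program and its strand setting were not named in these sources. Counts were summed to genes with GENCODE M21: 91320 of 94647 transcripts matched, and the 3327 others held 0.779% to 0.891% of a library. The edgeR filter left 14346 genes. Counts of all 30 libraries (6 groups, 24 residual degrees of freedom) were scaled with TMM factors (0.827 to 1.14) and fitted with edgeR 4.0.16 (R 4.3.3), quasi-likelihood test, Benjamini-Hochberg adjustment over all genes, threshold 0.05. CPM are TMM-scaled, and log2 CPM used a prior count of 2. SE was taken as the fold change over the square root of F.

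Genes are named by rule: the 12 genes per direction with the smallest p that have a full symbol, every called member of a list or else its 2 members with the smallest p, Lrrk2 and 12 set genes of inflammation, oxidative stress and microglia identity, genes that make up counts of at most 5, and called genes within 5 Mb of Lrrk2. Nos2, one of the set genes, did not pass the filter. Others, such as the receptor copies, span members and interferon genes with promoter matches, were chosen after their values were seen. The members and lists were chosen with earlier results of these data known. Alternatives were RLE and library size scaling, 2 filters, limma-voom (limma 3.58.1), DESeq2 1.42.0, a fit of the untreated libraries, replicate number as a block, 1 surrogate variable (sva 3.50.0) and each library left out, and, added after seeing the data, a marker covariate and leaving out 3 KO libraries. In simulated data with 14346 genes, this comparison recovered 60% of the 2-fold changes and 79% of the 4-fold changes.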

Additional observations from a re-analysis of the deposited data

Results flagged for a closer look

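Single libraries stood apart from the others of their group by Dixon's test in 16 of 154 groups of values examined, where chance gives about 1 in 20. Among KO libraries, replicate 4 was high for Gm14548 (42.6 CPM) and 1500015A07Rik (16.4 CPM), replicate 1 for Gm17383 (17.1 CPM), replicate 2 for Lpcat3 (39.7 CPM), replicate 3 for Smg9 (28.9 CPM) and replicate 5 for Ctla2a (17.1 CPM). KO replicate 6 was high for Wdfy1 (52.4 CPM), Cybc1 (78.5 CPM), Iqgap2 (57.2 CPM) and Lilra6 (19.6 CPM), and it was the lowest for the cell cycle list, with a mean log2 CPM of 3.75 beside 4.96 to 5.55 in the other KO libraries. Among WT libraries, replicate 5 was high for Smg9 (40.1 CPM) and low for Cybc1 (47.9 CPM), replicate 3 was low for Prkcd (210 CPM), replicate 1 was high for Ctse (0.298 CPM), and replicate 2 was low for the 1 granulocyte marker tested (mean log2 CPM -2.36). Of these, the KO values of Iqgap2, Lpcat3 and Smg9 and the WT values of Prkcd and Ctse lay towards the other genotype, and of these genes Ctse alone had overlapping ranges.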

How the results depend on the processing

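The count of 46 called genes moved to 98 with DESeq2, 84 with 1 surrogate variable and 17 with only the untreated libraries, and it ran from 26 to 58 when single libraries were left out, 26 being the count without WT control replicate 5. In 2 alternatives added after seeing the data it came to 92 with the other-cell marker score as a covariate and 24 without KO control replicates 3, 4 and 6. The untreated fit has fewer libraries to estimate the spread. The causes of these moves, that of the untreated fit included, were not tested. Library size as the only scaling gave 40 genes, 24 higher and 16 lower, against 22 higher and 24 lower with TMM. With the replicate block 46 genes were called, 25 higher and 21 lower, of which 40 were shared with the fit without it. Correlations between libraries were taken on log2 CPM after each gene's group mean was subtracted. On that scale same-numbered KO and WT libraries correlated at -0.0367 to 0.489, over 0.1 in 4 of 5 pairs. Differently numbered ones correlated at -0.584 to 0.457. The titles' WT numbers differ from those in the descriptions, and the main fit did not take the numbers as pairs. Whether same-numbered libraries shared a batch is not stated in the labels and was not tested. The Lrrk2 difference stayed between -11.16 and -9.503 CPM when libraries were left out. Leaving out at least 1 library ended 22 of the 46 calls and left 24. Of 51 named genes not called, 13 changed sign under some setting, and Pmvk, Cst7 and Rac1 were called under at least 1. At these depths, genes under about 1 CPM, such as Ctse, Sbk2 and Gm15925, rest on few counts. Positions, lists and windows around called genes describe the same libraries and add no independent test.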
